A study of Mus musculus with 12 samples.

Results

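Of the 55487 genes counted in mouse mammary gland, 6 are described here, the DNA methyltransferases Dnmt1, Dnmt3a and Dnmt3b and their partners Uhrf1, Uhrf2 and Hells. They were chosen by name, with no threshold on a measured value. The study gave C57BL/6 female mice folic acid at 5 mg/kg or 1 mg/kg during juvenile and peri-pubertal life. Mammary glands were collected 4 weeks after supplementation, at postnatal day 84, as intact right thoracic fat pads, and each group holds 6 RNA-seq libraries. Both groups received folic acid, and a group without it was not analysed here. Both carry the C57BL/6 background with no allele named. The labels do not say whether the 6 libraries of a group are 6 animals, so p-values measure the spread between these samples, which may be technical.

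DNA methylation in mammals is laid down by the de novo enzymes Dnmt3a and Dnmt3b and kept through cell division by Dnmt1, the maintenance enzyme. Uhrf1 binds the hemimethylated CpG sites left behind a replication fork, ubiquitylates histone H3 there and so brings Dnmt1 to newly made DNA. Uhrf2 is its paralog, best known for binding hydroxymethylated DNA, and Hells is an SNF2-family chromatin remodeler that opens nucleosomal DNA to the methyltransferases. The 3 methyltransferases use the methyl donor S-adenosylmethionine, which the folate cycle helps to regenerate. Maintenance methylation is tied to DNA replication, so Dnmt1, Uhrf1 and Hells are known as genes of dividing cells, among them lymphocytes in germinal centres.

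On GRCm38, Dnmt1 (ENSMUSG00000004099) lies at chr9:20907209-20959888 on the minus strand, and the other 5 genes lie on plus strands. Uhrf1 (ENSMUSG00000001228) lies at chr17:56303321-56323486 and Hells (ENSMUSG00000025001) at chr19:38930915-38971051. Dnmt3a (ENSMUSG00000020661) lies at chr12:3806007-3914443 and Dnmt3b (ENSMUSG00000027478) at chr2:153649450-153687730. Uhrf2 (ENSMUSG00000024817) lies at chr19:30030513-30093722. All 6 are annotated as protein coding. An exon of Dnmt3a overlaps the antisense gene Dnmt3aos, and the library kit marks no strand, so reads of that pair cannot be told apart. Reads shared between Dnmt3b and its near copies are uncertain in the same way.

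Promoter sequences were read from RefSeq windows on GRCm38.p6 that run from 250 bases before to 50 bases after an annotated start. The 6 genes had 11 such windows, and for each gene the window with the most GENCODE transcript starts was taken. Dnmt1, Uhrf1 and Hells are printed because their RNA levels moved together across libraries, and Uhrf2 is printed beside them because its level did not follow theirs. The Dnmt1 window is chr9:20952574-20952873 on the minus strand, and the others, on plus strands, are chr17:56304063-56304362 for Uhrf1, chr19:38930740-38931039 for Hells and chr19:30030263-30030562 for Uhrf2. Capitals mark 8-letter matches to the E2F motif, a sequence bound by cell cycle transcription factors, and matches to CCAAT, on either strand.
Dnmt1: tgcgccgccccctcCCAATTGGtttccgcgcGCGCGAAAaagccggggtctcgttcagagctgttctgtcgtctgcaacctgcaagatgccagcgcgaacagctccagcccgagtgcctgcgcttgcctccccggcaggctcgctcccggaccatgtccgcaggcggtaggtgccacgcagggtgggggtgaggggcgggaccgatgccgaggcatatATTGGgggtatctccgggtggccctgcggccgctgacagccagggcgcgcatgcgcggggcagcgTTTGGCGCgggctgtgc
Uhrf1: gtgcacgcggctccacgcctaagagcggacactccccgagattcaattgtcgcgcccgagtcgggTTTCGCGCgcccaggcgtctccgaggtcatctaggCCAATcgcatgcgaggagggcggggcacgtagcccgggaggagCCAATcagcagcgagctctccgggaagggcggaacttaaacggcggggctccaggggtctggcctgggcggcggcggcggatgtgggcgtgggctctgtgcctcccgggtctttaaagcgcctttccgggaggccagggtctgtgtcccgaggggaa
Hells: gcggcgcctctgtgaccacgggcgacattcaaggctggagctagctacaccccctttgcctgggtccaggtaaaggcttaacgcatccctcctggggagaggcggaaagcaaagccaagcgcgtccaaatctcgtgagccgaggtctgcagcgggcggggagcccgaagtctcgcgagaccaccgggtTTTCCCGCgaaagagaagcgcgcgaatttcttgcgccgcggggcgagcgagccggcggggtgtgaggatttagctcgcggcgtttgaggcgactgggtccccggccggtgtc
Uhrf2: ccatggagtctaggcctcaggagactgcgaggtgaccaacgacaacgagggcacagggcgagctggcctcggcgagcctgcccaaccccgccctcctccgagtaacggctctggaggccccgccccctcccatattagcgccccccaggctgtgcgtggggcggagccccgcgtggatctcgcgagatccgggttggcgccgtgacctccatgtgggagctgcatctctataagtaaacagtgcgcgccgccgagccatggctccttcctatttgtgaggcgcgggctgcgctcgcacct
The E2F search used TTTCCCGC, TTTCGCGC, TTTGCCGC and TTTGGCGC on both strands, and 2.27% of all 32841 RefSeq windows of this length hold at least 1 match. Counting the start base as 0, the matches began at -219 and 33 in Dnmt1, at -185 in Uhrf1 and at -62 in Hells. These positions refer to the annotated start of the chosen window, which need not be the main start of the gene. No match lay in the printed Uhrf2 window or in the windows of Dnmt3a and Dnmt3b, which says only that these letters are not there. CCAAT, present in 37.4% of all windows, occurred 3 times in Dnmt1, where 2 of the matches overlap on opposite strands, and 2 times in Uhrf1, but not in Hells or Uhrf2. All 6 windows were rich in CpG, the dinucleotide these enzymes methylate, with 28 to 47 copies each, against a median of 7 over all windows. A match is a description of the letters, not evidence that a factor binds.

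Libraries held 48165752 to 75299437 gene-assigned reads. Lymphoid content differed widely between pads within each dose: Ms4a1, a B cell surface gene, spanned 0.482 to 104 CPM (depth-scaled read counts, with TMM factors) with a median of 25.2 at 5 mg/kg, and 0.554 to 152 CPM with a median of 71.2 at 1 mg/kg. At 5 mg/kg replicates 1, 2 and 3, and at 1 mg/kg replicates 1, 5 and 6, held 49.0 CPM or more, replicate 3 at 1 mg/kg held 17.7 CPM, and the remaining 5 libraries held 1.37 CPM or less. The summed level of the 10 genes of the B cell list was 5.35 to 662 CPM in the 5 mg/kg libraries, against 4.06 to 887 CPM in the 1 mg/kg libraries. That of the 10 T cell genes was 4.63 to 261 CPM in the 5 mg/kg libraries, against 5.69 to 405 CPM in the 1 mg/kg libraries. No gene of these lists was at 0 in any library, whereas the lymph node stroma gene Ccl21a was at 0 in all 12. The 4 tested genes of the lymph node stroma and venule list had a summed level of 2.81 to 469 CPM at 5 mg/kg. At 1 mg/kg that sum was 1.81 to 582 CPM. Glycam1 had the highest mean of them, 200 CPM, and Chst4 was at 0 in 2 libraries. Ccl19, also of this list, held 0 to 18 reads and was not tested. Ccl21a alone thus does not stand for its list, and the cause of its zeros was not tested. All 8 luminal epithelial markers were detected in every library, with a summed level of 150 to 461 CPM at 5 mg/kg, against 106 to 668 CPM at 1 mg/kg. In such bulk samples, fewer cells of a type and less RNA per cell cannot be told apart.

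Per length of transcript, Dnmt1 had the highest level of the 6 genes and Dnmt3b the lowest at both doses. In RPKM, here CPM divided by the merged exon length in kilobases, Dnmt1 averaged 4.86 ± 1.70 at 5 mg/kg and 5.57 ± 2.10 at 1 mg/kg (SD, n = 6 each). Uhrf2 followed with 3.53 ± 0.296 RPKM at 5 mg/kg and 4.22 ± 0.581 RPKM at 1 mg/kg. Dnmt3a had 2.26 ± 0.0758 RPKM at 5 mg/kg and 2.52 ± 0.306 RPKM at 1 mg/kg. The top 3 were thus the maintenance enzyme, the Uhrf1 paralog and a de novo enzyme, each well detected, and the other 3 stood lower. Uhrf1 had 0.929 ± 0.578 RPKM at 5 mg/kg and 1.05 ± 0.777 RPKM at 1 mg/kg. Hells had 0.585 ± 0.344 RPKM at 5 mg/kg and 0.776 ± 0.488 RPKM at 1 mg/kg. Dnmt3b had 0.331 ± 0.0853 RPKM at 5 mg/kg and 0.353 ± 0.146 RPKM at 1 mg/kg. The ranges of neighbours in this order overlapped for Dnmt1 and Uhrf2, for Uhrf1 and Hells and for Hells and Dnmt3b, so these neighbours do not stand apart beyond their spread. Divided by the longest annotated transcript, which for Uhrf2 is much shorter than its merged exons, Uhrf2 came first with 8.58 RPKM at 5 mg/kg and 10.3 RPKM at 1 mg/kg, ahead of Dnmt1 at both doses.

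The 6 genes differed in how much they varied between pads. Uhrf1 spanned a 9.17-fold range over the 12 libraries, Hells 8.05-fold, Dnmt3b 3.05-fold and Dnmt1 2.83-fold, whereas Uhrf2 spanned 1.62-fold and Dnmt3a 1.47-fold. Over the 12 libraries the coefficient of variation was 66.3% for Uhrf1 and 61.0% for Hells, higher than in 90.5% and 87.8% of tested genes, and the median gene had 29.5%. That of Dnmt3a was 10.6%, and only 6.70% of tested genes had a lower one. A de novo enzyme and a maintenance cofactor thus sat near opposite ends of the ranking of genes by variability.

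**Figure D1:**
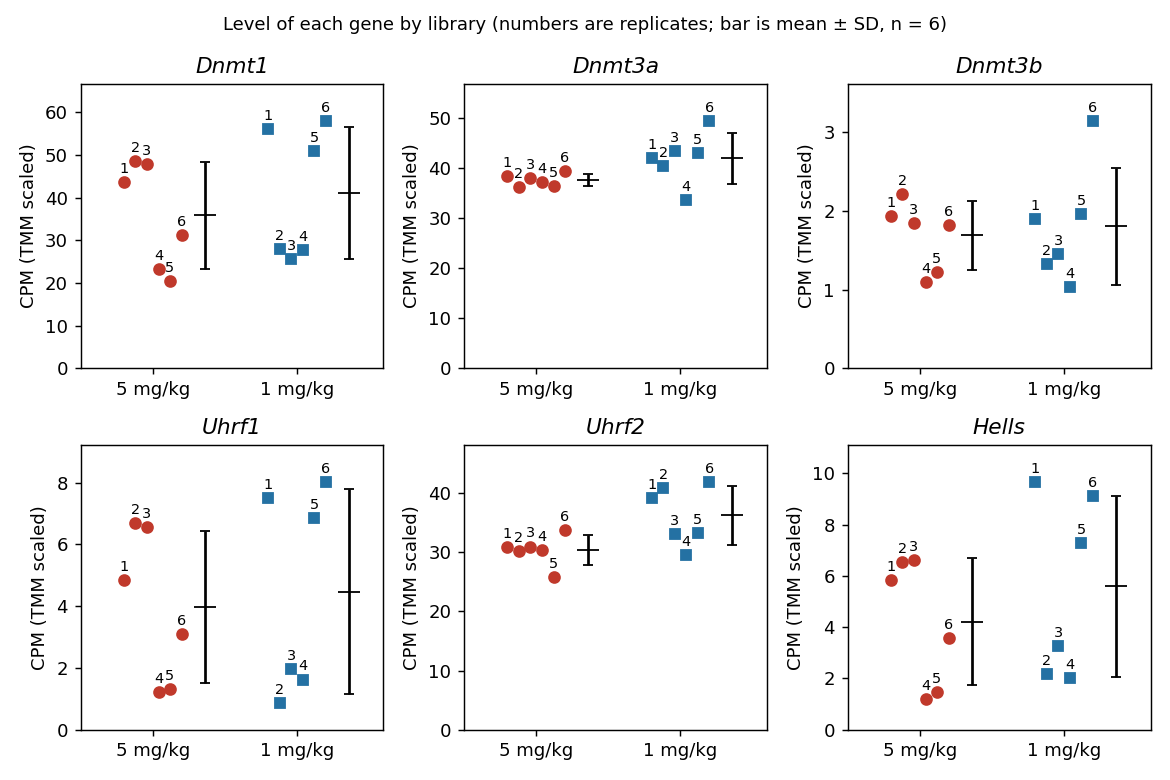
Level of each gene in CPM (vertical axes start at 0) in the 5 mg/kg and 1 mg/kg libraries, where each point is a library numbered by replicate and the bar is mean ± SD (n = 6 each). Dnmt1, Uhrf1 and Hells each form a high and a low set of libraries within both doses, with replicate 6 at 5 mg/kg between the sets. Dnmt3a and Uhrf2 stay within a narrow band.

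The first comparison asked whether the RNA of these genes differed between the folic acid doses. None of the 6 passed the test, and the same was true of all 18647 tested genes, of which 0% were called. The maintenance genes Dnmt1, Uhrf1 and Hells were spread so widely within each dose that changes of well over 2-fold in Uhrf1 and Hells lie inside their intervals. The de novo enzyme Dnmt3a and the Uhrf1 paralog Uhrf2 varied little, and both were slightly lower at 5 mg/kg in estimate. Without adjustment, Uhrf2 alone of the 6 had a p below 0.05.

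Among the maintenance genes, Dnmt1 had a lowest value of 20.5, a median of 37.4 and a highest of 48.6 CPM at 5 mg/kg, against 25.7, 39.5 and 58.0 CPM at 1 mg/kg. The groups overlapped, and the libraries with high Ms4a1 were the high ones at both doses. Its log2 fold change was -0.20 ± 0.29 (SE, 95% interval -0.82 to 0.43), with an adjusted p of 0.943 by edgeR's quasi-likelihood test with Benjamini-Hochberg adjustment. Uhrf1, which recruits Dnmt1, had a lowest value of 1.22, a median of 3.98 and a highest of 6.69 CPM at 5 mg/kg, against 0.873, 4.40 and 8.01 CPM at 1 mg/kg. The 2 groups overlapped over nearly their whole range, and the log2 fold change was -0.18 ± 0.60 (95% interval -1.48 to 1.13, edgeR adjusted p = 0.962). Hells, the remodeler, had a lowest value of 1.20, a median of 4.72 and a highest of 6.63 CPM at 5 mg/kg, against 2.03, 5.27 and 9.66 CPM at 1 mg/kg. Its lowest 2 libraries were replicates 4 and 5 at 5 mg/kg and its highest 2 were replicates 1 and 6 at 1 mg/kg, yet the groups overlapped. The log2 fold change of Hells was -0.41 ± 0.52 (95% interval -1.54 to 0.73, edgeR adjusted p = 0.943). Replicates 4 and 5 at 5 mg/kg also had the highest levels of the brown fat list. Their Ms4a1 was low too, at 0.703 and 1.37 CPM. Their mean log2 CPM of 18 replication and cell cycle genes, 1.53 and 1.01, was the lowest of that dose. Without both libraries, the estimates of Dnmt1, Uhrf1 and Hells were 0.10, 0.29 and 0.061, on the other side of 0. The parts of brown fat content, lymphoid content and replication in this change were not tested.

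Of the de novo enzymes, Dnmt3a had a lowest value of 36.2, a median of 37.6 and a highest of 39.5 CPM at 5 mg/kg, against 33.7, 42.4 and 49.4 CPM at 1 mg/kg. The 5 mg/kg libraries lay close together, and 5 of the 6 libraries at 1 mg/kg were above all of them, with replicate 4 below. The log2 fold change was -0.16 ± 0.093 (95% interval -0.36 to 0.045, edgeR adjusted p = 0.943), and a two-sided exact permutation test over the 924 assignments of the libraries gave p = 0.0758. Each of the 12 libraries was left out in turn, and replicate 4 at 1 mg/kg is the 1 that breaks this separation. Without it, Dnmt3a did not overlap between doses. The lowest unadjusted exact p among the 6 genes was then 0.00216, the smallest that the remaining libraries allow. That p follows from the lack of overlap and adds nothing to it. How many of all tested genes also separate without that library was not counted. Dnmt3b was far lower, from 53 to 201 reads per library, with a lowest value of 1.10, a median of 1.83 and a highest of 2.21 CPM at 5 mg/kg, against 1.03, 1.67 and 3.15 CPM at 1 mg/kg. Its groups overlapped, with a log2 fold change of -0.094 ± 0.28 (95% interval -0.70 to 0.51, edgeR adjusted p = 0.956).

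Uhrf2 had a lowest value of 25.9, a median of 30.6 and a highest of 33.7 CPM at 5 mg/kg, against 29.5, 36.2 and 41.8 CPM at 1 mg/kg. Apart from replicate 6, the 5 mg/kg libraries held 31.0 CPM or less, and 3 of the 1 mg/kg libraries held 39.1 CPM or more, so the groups overlapped in part. The log2 fold change was -0.26 ± 0.11 (95% interval -0.49 to -0.025). Its unadjusted p of 0.0328 became 0.943 after adjustment (edgeR quasi-likelihood test, Benjamini-Hochberg), and 1.93% of all tested genes had an unadjusted p below 0.05, 0.590% with a lower level at 5 mg/kg. The exact permutation test gave p = 0.0346, not adjusted over the 6 genes tested. The lowest exact p among the 6 genes was 0.0519 to 0.0931 when any of 8 libraries was left out. These were replicates 1 to 5 at 5 mg/kg and replicates 1, 2 and 6 at 1 mg/kg, so without any of them Uhrf2 also stayed above 0.05. All 6 genes had an estimate below 0, with a median of -0.19, where 52.8% of all tested genes were below 0 with a median of -0.018. None of the 6 had groups that did not overlap, and 8 of the 18647 tested genes did.

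Ratios between members of the same library, which no scaling can change, also did not differ between doses beyond their spread. The log2 ratio of Dnmt1 to Dnmt3a was -0.15 ± 0.54 at 5 mg/kg and -0.11 ± 0.48 at 1 mg/kg, that of Dnmt3b to Dnmt3a -4.51 ± 0.39 and -4.62 ± 0.40, and that of Uhrf1 to Uhrf2 -3.24 ± 1.05 and -3.47 ± 1.33 at the same doses (SD, n = 6 each). With Hells to Dnmt1 and Uhrf1 to Dnmt1, 5 ratios were compared, and the two-sided exact permutation p ran from 0.494 to 0.870, with 0.870 for each after adjustment over the 5. The balance of maintenance to de novo enzyme spread far more within a dose than between doses.

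The second comparison asked how the 6 genes followed lymphoid content, with Ms4a1 as its measure and dose held in the model. Uhrf1, Hells, Dnmt1 and Dnmt3b were higher where Ms4a1 was higher, and Dnmt3a and Uhrf2 did not pass the test. A called rise with Ms4a1 was common in this tissue, at 22.0% of all tested genes, so 4 of 6 is to be read against that background. Of the 12 libraries, 6 were high and 5 low in Ms4a1, so each slope rests mainly on the step between them. The library between, replicate 3 at 1 mg/kg with 17.7 CPM of Ms4a1, had the lowest Dnmt1 of its dose, 25.7 CPM, with 1.96 CPM of Uhrf1 and 3.26 CPM of Hells, closer to the libraries of low Ms4a1.

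For each doubling of Ms4a1, Uhrf1 rose by a log2 change of 0.28 ± 0.045 (SE, 95% interval 0.18 to 0.38, edgeR adjusted p = 0.000390) and Hells by 0.24 ± 0.039 (0.16 to 0.32, adjusted p = 0.000453). Dnmt1 rose by 0.13 ± 0.022 (0.077 to 0.17, edgeR adjusted p = 0.000836), so the maintenance enzyme had a lower slope estimate than its recruiter and the remodeler. Dnmt3b rose by 0.10 ± 0.029 (0.037 to 0.16, edgeR adjusted p = 0.0173), a call that was lost without replicate 4 at 1 mg/kg, when the adjusted p was 0.0613. Neither of the remaining 2 genes passed: the slope of Dnmt3a was 0.017 ± 0.012 (-0.0097 to 0.044, edgeR adjusted p = 0.287) and that of Uhrf2 was 0.0079 ± 0.015 (-0.025 to 0.040, adjusted p = 0.690). The upper ends of both intervals lie below the lower ends of the Dnmt1, Uhrf1 and Hells intervals.

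Within libraries, the log2 ratio of Uhrf1 to Uhrf2 had a slope of 0.29 per doubling of Ms4a1, that of Dnmt1 to Dnmt3a 0.11 and that of Dnmt3b to Dnmt3a 0.083. These pairs set a gene with a called slope over one without, so the signs follow from the choice of pairs. A permutation test of these slopes was run but is not used as support for that reason. Library 6 at 5 mg/kg had the lowest Ms4a1, 0.482 CPM, yet held 3.11 CPM of Uhrf1 and 3.59 CPM of Hells, above every other library of low Ms4a1. It also had 34.4 CPM of the proliferation gene Mki67, whereas the other 4 libraries of low Ms4a1 had 7.40 to 16.9 CPM. Its summed luminal epithelial level was 437 CPM. Of the other libraries of low Ms4a1, replicates 4 and 5 at 5 mg/kg had 461 and 150 CPM. Replicates 2 and 4 at 1 mg/kg had 668 and 546 CPM. Library 6 at 5 mg/kg also had the highest fibroblast matrix level of all libraries and the lowest brown fat level, 8.78 and 0.12 (mean log2 CPM). Its plasma cell level of 2.50 was the highest among the libraries of low Ms4a1. Which of these goes with its Uhrf1 and Hells was not tested.

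**Figure D2:**
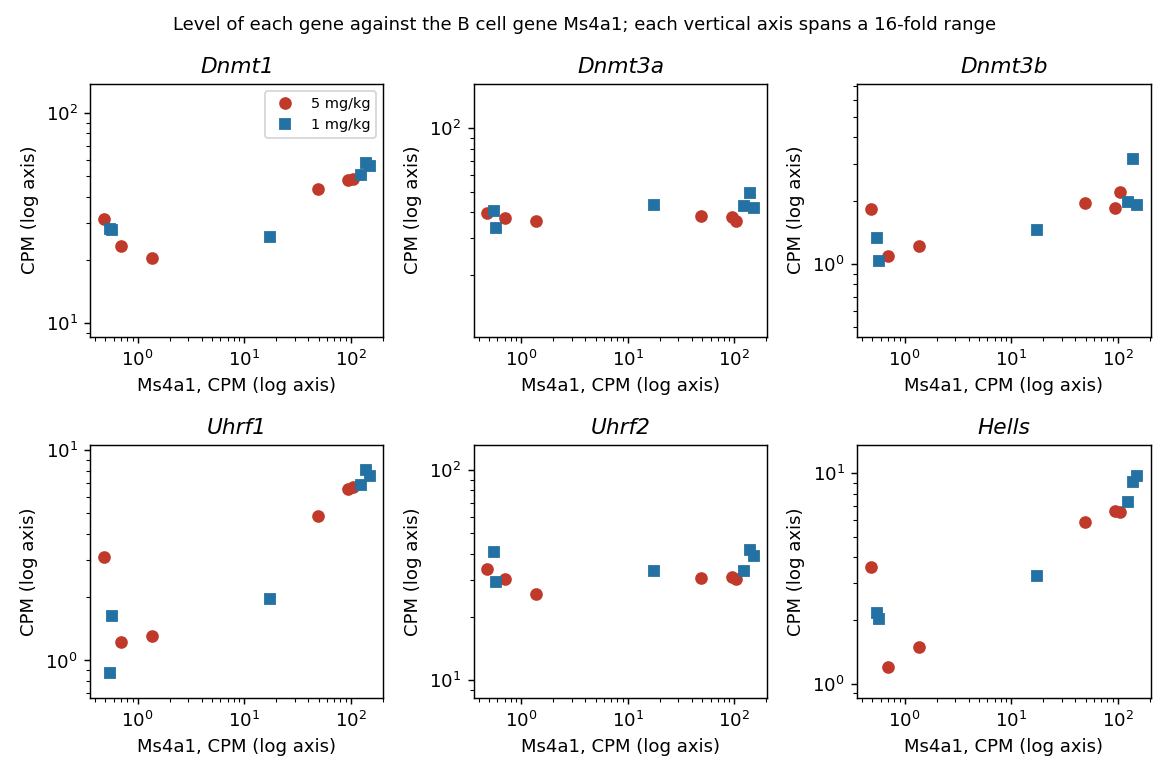
Level of each gene against Ms4a1, both in CPM on log axes with every vertical axis spanning the same fold range, where a point is a library at 5 mg/kg (circles) or 1 mg/kg (squares). Uhrf1 and Hells climb from libraries of low Ms4a1 to those of high Ms4a1, Dnmt1 and Dnmt3b climb less, and Dnmt3a and Uhrf2 lie nearly flat.

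With Ms4a1 in the model, the dose estimates of the 6 genes were again all short of the threshold, as were those of all other tested genes (0% called). The standard errors of the maintenance genes shrank by nearly a factor of 2. Dnmt1 had a log2 fold change of -0.068 ± 0.15 (95% interval -0.40 to 0.27, edgeR adjusted p = 0.966), Hells of -0.086 ± 0.27 (-0.66 to 0.49, adjusted p = 0.973) and Uhrf1 of 0.29 ± 0.30 (-0.37 to 0.95, adjusted p = 0.948). The estimates of Dnmt1 and Hells moved toward 0 and that of Uhrf1 changed sign, all within their intervals. Dnmt3a stayed at -0.13 ± 0.085 (-0.32 to 0.050, edgeR adjusted p = 0.948) and Dnmt3b was at 0.048 ± 0.20 (-0.39 to 0.49, adjusted p = 0.985). Uhrf2 had -0.25 ± 0.10 (-0.47 to -0.021), with an unadjusted p of 0.0345 and an edgeR adjusted p of 0.948, beside 3.78% of all tested genes below 0.05 without adjustment and 1.19% with a lower level. Of the 6 estimates 4 were below 0 with a median of -0.077, where 49.8% of all tested genes were below 0 with a median of 0.0011. The product of dose and Ms4a1, which asks whether the slopes differ between doses, was called for 0% of tested genes, with 2.15% below 0.05 unadjusted, and for the 6 genes it lay between -0.099 and 0.0021 (edgeR adjusted p of 1.00 for each).

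**Figure D3:**
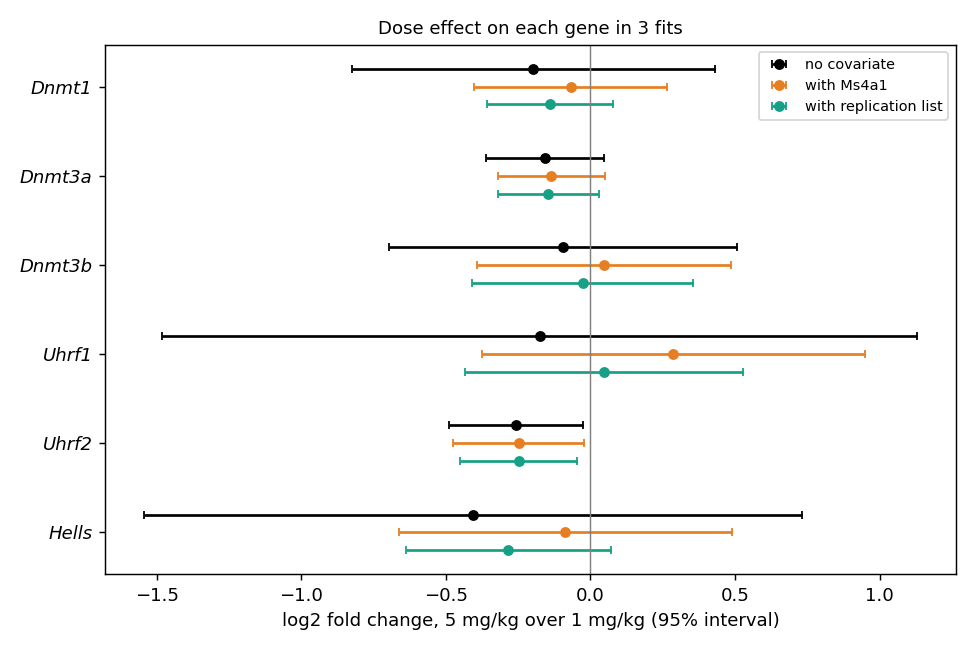
Log2 fold change of each gene, 5 mg/kg over 1 mg/kg, with its 95% interval, from the fit with no covariate (black), with Ms4a1 (orange) and with the replication list (green). The intervals of Dnmt1, Uhrf1 and Hells narrow with either covariate, and only those of Uhrf2 lie wholly below 0 before adjustment for the number of genes.

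Genes of DNA replication and the cell cycle moved with the same libraries. Of 18 such genes, 17 rose with Ms4a1, beside 22.0% of all tested genes, and Tyms did not pass. Mcm5, a subunit of the replicative helicase, rose by 0.30 per doubling (edgeR adjusted p = 0.000122) and Mki67 by 0.21 (adjusted p = 0.00894). The mean log2 CPM of the list, used as a second covariate, ran from 1.01 to 2.84 at 5 mg/kg and from 1.20 to 3.17 at 1 mg/kg. Per log2 unit of that level, Uhrf1 rose by 1.48 ± 0.16 (edgeR adjusted p = 4.62e-05) and Hells by 1.31 ± 0.12 (adjusted p = 2.49e-05). Dnmt1 rose by 0.68 ± 0.072 (edgeR adjusted p = 3.80e-05) and Dnmt3b by 0.55 ± 0.13 (adjusted p = 0.00456). Uhrf1 and Hells thus followed the list more than in proportion, and Dnmt1 and Dnmt3b less. Dnmt3a at 0.091 ± 0.057 (edgeR adjusted p = 0.204) and Uhrf2 at 0.11 ± 0.067 (adjusted p = 0.189) did not pass, and 25.2% of all tested genes were called higher on this slope. With this list as covariate in place of Ms4a1, no dose effect was called (0% of tested genes, 7.79% below 0.05 unadjusted), and Uhrf2 had -0.25 ± 0.093 (unadjusted p = 0.0206, edgeR adjusted p = 0.636).

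**Figure D4:**
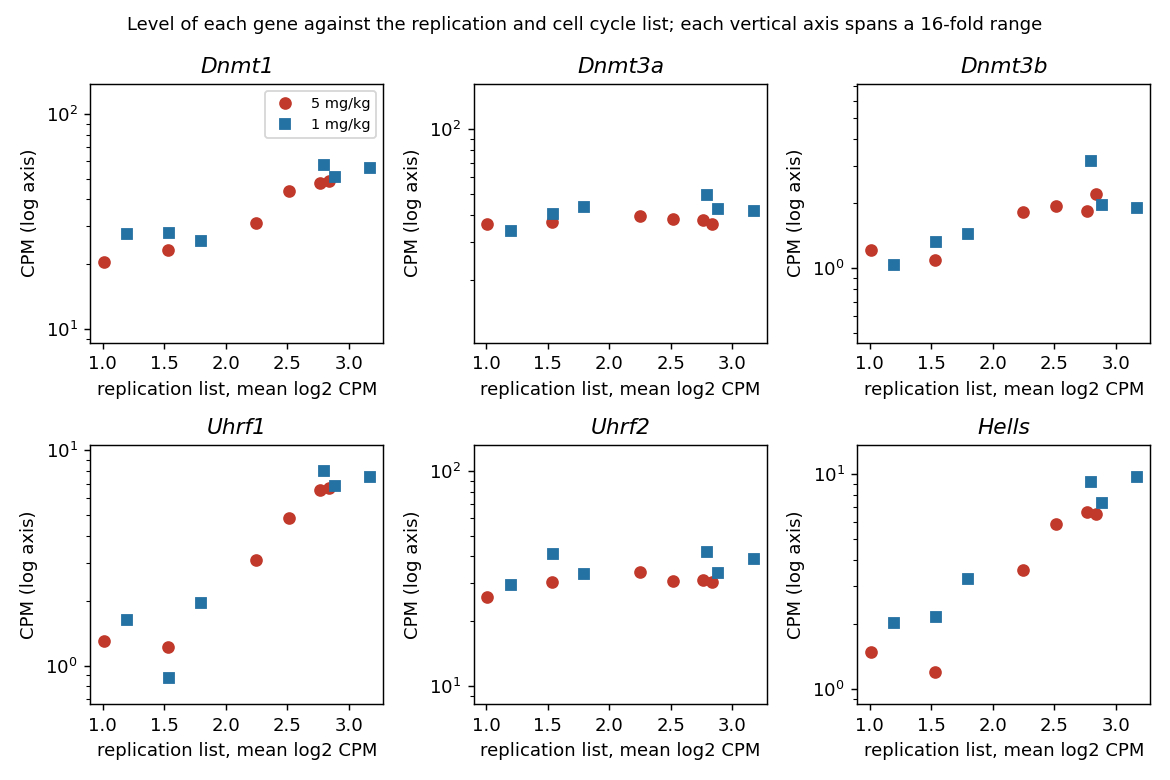
Level of each gene in CPM (log axis, the same fold range in every panel) against the mean log2 CPM of 18 replication and cell cycle genes, where a point is a library at 5 mg/kg (circles) or 1 mg/kg (squares). Uhrf1, Hells, Dnmt1 and Dnmt3b rise along the axis, and Dnmt3a and Uhrf2 stay nearly level.

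With Ms4a1 and the replication list in 1 model, a fit added after the slopes were known, no member kept a called slope on Ms4a1, against 6.27% of all tested genes called. The slopes on Ms4a1 were 0.10 for Uhrf1 (edgeR adjusted p = 0.270), 0.067 for Hells (adjusted p = 0.310), 0.025 for Dnmt1 (adjusted p = 0.597) and 0.023 for Dnmt3b (adjusted p = 0.783). On the replication list, Hells rose by 1.03 (edgeR adjusted p = 0.0238), Uhrf1 by 1.07 (adjusted p = 0.0378) and Dnmt1 by 0.58 (adjusted p = 0.0355), beside 4.62% of all tested genes called higher. Dnmt3b had 0.45 (edgeR adjusted p = 0.205), Uhrf2 0.29 (adjusted p = 0.111) and Dnmt3a 0.077 (adjusted p = 0.647). The 2 measures moved together over these libraries, and their shares in the levels of these genes cannot be told apart by this fit alone.

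The mean log2 CPM of each of 13 cell type lists was put in place of Ms4a1 in turn, each with dose held. On the T cell list the 4 genes rose again, by 0.40 for Uhrf1, 0.34 for Hells, 0.17 for Dnmt1 and 0.14 for Dnmt3b, with edgeR adjusted p of 2.95e-05, 2.38e-05, 0.000167 and 0.00662, where 22.7% of all tested genes rose. On the adipocyte list the 4 genes fell, with slopes of -1.62 for Uhrf1, -1.54 for Hells, -0.78 for Dnmt3b and -0.74 for Dnmt1 and edgeR adjusted p from 0.00954 to 0.0230, where 16.4% of all tested genes fell. On the germinal centre B cell list, Uhrf1 rose by 2.18, Hells by 1.77, Dnmt1 by 0.96 and Dnmt3b by 0.76 per log2 unit of its mean level (edgeR adjusted p = 0.000503, 0.00178, 0.000885 and 0.0153), where 23.2% of all tested genes rose. The same 4 genes rose on the B cell list and on the lymph node stroma and venule list, where 22.3% and 22.4% of all tested genes rose. They fell on the endothelium list, with slopes of -5.11 for Uhrf1, -4.39 for Hells, -2.43 for Dnmt1 and -2.22 for Dnmt3b. The edgeR adjusted p ran from 0.00563 to 0.00894, where 21.5% of all tested genes fell. The level of that list ran only from 5.31 to 5.59 at 5 mg/kg and from 5.04 to 5.63 at 1 mg/kg. Slopes are per log2 unit, so their sizes do not compare between lists. Its genes also disagreed: Pecam1 rose with Ms4a1 (0.055, edgeR adjusted p = 0.00316), whereas 4 were called lower. On the luminal epithelial list none of the 6 was called, with edgeR adjusted p from 0.404 to 0.708 and 4.77% of all tested genes called. None of the 6 was called on the plasma cell, basal epithelium, skeletal muscle, fibroblast matrix, brown fat and macrophage lists. In that order, 1.62%, 2.01%, 15.9%, 16.6%, 6.15% and 0.0107% of all tested genes were called. Some slopes fell just short, with a lowest edgeR adjusted p of 0.0530 on the plasma cell list (Hells, slope 1.53). It was 0.0502 on the skeletal muscle list (Dnmt1, -0.48) and 0.0559 on the fibroblast matrix list (Uhrf1, -1.62). On the basal epithelium, brown fat and macrophage lists the lowest was 0.406, 0.174 and 0.905. A missing call thus does not show that a gene is unrelated to a list. With the luminal list beside Ms4a1 the 4 genes kept their called rise with Ms4a1, at 0.30 for Uhrf1, 0.27 for Hells, 0.15 for Dnmt1 and 0.12 for Dnmt3b, where 22.3% of all tested genes rose.

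**Figure D5:**
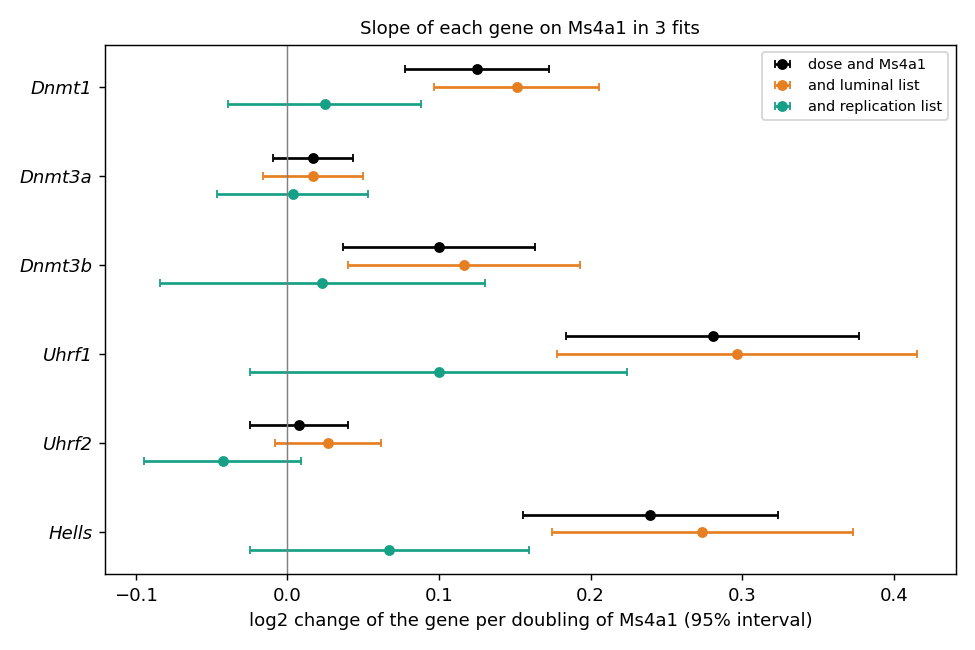
Slope of each gene on Ms4a1 (log2 change per doubling of Ms4a1) with its 95% interval, from the fit with dose and Ms4a1 (black), with the luminal list added (orange) and with the replication list added (green). The slopes of Dnmt1, Dnmt3b, Uhrf1 and Hells lie above 0 in the first 2 fits and their intervals include 0 once the replication list is added.

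The 3 maintenance genes also resembled each other most in their pattern over libraries. On log2 CPM over the 12 libraries, Pearson's r was 0.96 between Dnmt1 and Hells, 0.95 between Uhrf1 and Hells, 0.94 between Dnmt1 and Uhrf1 and 0.77 between Dnmt3a and Uhrf2, but 0.25 between the paralogs Uhrf1 and Uhrf2. After dose and Ms4a1 were fitted, r among the 3 maintenance genes was 0.82 to 0.85. The points share their lymphoid content and most libraries fall into separate sets, so these values describe the pattern and carry no test. Among 12818 candidate genes, the levels most like Uhrf1 were those of Mcm5 (r = 0.989), Ubash3b (0.984) and Fanci (0.984), and those most like Dnmt1 were Arhgap27 (0.991), Rbl1 (0.990) and Slc35c1 (0.989). Most like Hells were Ciita (0.990), which drives class II antigen presentation genes, Fgd2 (0.988) and Adcy7 (0.988). The levels most like Uhrf2 were those of Phc3 (0.921), Arid2 (0.915) and Zfp280d (0.906), most like Dnmt3a Spopl (0.926), Taf1a (0.913) and Gpr137c (0.902), and most like Dnmt3b Gga3 (0.961), Hdac7 (0.953) and Aoc2 (0.952).

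Of 18 partners of methylation, none was called for dose, and the estimates of 12 were below 0 with a median of -0.17, beside 52.8% and -0.018 over all tested genes. With Ms4a1, 9 of the 18 rose and none fell, beside 22.0% of all tested genes that rose and 16.4% that fell. Smchd1, a chromatin protein of the silent X chromosome, had 72.6 ± 23.7 CPM at 5 mg/kg, against 96.5 ± 43.1 CPM at 1 mg/kg (SD, n = 6 each) and rose by 0.14 per doubling of Ms4a1 (edgeR adjusted p = 0.000308). Cdca7, the activator of Hells, rose by 0.13 (edgeR adjusted p = 0.0204), and Pcna, the clamp on which Dnmt1 rides, and Lig1, the ligase whose methylated form binds Uhrf1, rose by 0.12 each (adjusted p = 0.000118 and 0.00903). Zbtb24, which regulates Cdca7, rose by 0.071 (edgeR adjusted p = 0.00392), and Usp7, the deubiquitinase of Dnmt1 and Uhrf1, by 0.062 (adjusted p = 0.00134). Smaller called slopes were those of Trim28 at 0.055, Setd2 at 0.052 and Setdb1 at 0.046, all factors of histone methylation or heterochromatin. The 9 that did not pass included Nsd1, with the highest mean of the list at 171 CPM, and both histone deacetylases Hdac1 and Hdac2.

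Of 14 genes that remove or read methylated cytosine, none was called for dose, and the estimates of 12 were below 0 with a median of -0.13, beside the same 52.8% and -0.018 over all tested genes. With Ms4a1, 4 of the 14 rose and 1 fell, near the 22.0% and 16.4% of all tested genes. The oxidases Tet1, Tet2 and Tet3 did not pass, with slopes of 0.022, 0.019 and 0.053 (edgeR adjusted p = 0.389, 0.314 and 0.145). The mismatch glycosylase Mbd4 rose by 0.20 per doubling (edgeR adjusted p = 0.000846), the stress gene Gadd45b by 0.15 (adjusted p = 0.000808), and the methyl-CpG readers Mbd2 by 0.056 (adjusted p = 0.000664) and Zbtb33 by 0.049 (adjusted p = 0.00586). Gadd45a, a relative of Gadd45b, fell by 0.10 (edgeR adjusted p = 0.0227).

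The supply of S-adenosylmethionine, the step closest to folate, was measured by 8 genes, none of them called for dose. Mat2a, the enzyme that makes the methyl donor, had 88.4 ± 13.1 CPM at 5 mg/kg, against 92.5 ± 10.5 CPM at 1 mg/kg (SD, n = 6 each), with a log2 fold change of -0.065 ± 0.12. Only Ahcyl2, a relative of the hydrolase that clears the spent donor, was called on Ms4a1, where it fell by 0.056 per doubling (edgeR adjusted p = 0.0150), 1 of 8 beside the 16.4% of all tested genes that fell. At 5 mg/kg it had 69.8 ± 11.0 CPM and at 1 mg/kg 56.8 ± 13.7 CPM, with a log2 fold change of 0.30 ± 0.16 (edgeR adjusted p = 0.943). Mtr, which joins the folate and methionine cycles, had a dose estimate of -0.13 ± 0.11 and was not called on either term.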

How the data were processed

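RNA was measured in 12 libraries of mammary fat pads, 6 per folic acid dose, grouped by the treatment label. The files the authors deposited hold raw counts of reads for each Ensembl gene. STAR, HTSeq 0.6.1 and the build mm10 are named in this connection, per the submitters' processing notes. Not given in the sources used here are the STAR version, the gene annotation and the strand setting. Tally lines of unassigned reads, 16.7% to 35.7% of reads, were left out, and no pair of libraries within a group was alike within sampling noise. Symbols and coordinates came from GENCODE vM21 and matched 55141 of 55487 IDs.

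Counts were tested with edgeR 4.0.16 in R 4.3.3 (filterByExpr, TMM, robust quasi-likelihood F-test), without covariates, with centred log2 CPM of Ms4a1 (prior count 2), with its product with dose, or with the replication list. P-values were adjusted by Benjamini-Hochberg over all 18647 tested genes (18646 where Ms4a1 is a covariate), with 0.05 as threshold. Intervals are 95% intervals, and a negative log2 fold change means a lower level at 5 mg/kg. All 6 genes passed the filter on low counts. The scripts were tested on simulated data. DESeq2 1.42.0, limma-voom (limma 3.58.1), other scalings, no filter, other covariates and leaving out libraries were tried as alternatives. The 6 genes and the lists were chosen with earlier results of these data known. Named genes are the 6, Ms4a1, Mki67, the top of each list by level and by slope p, called methylation genes up to 8 a list, and the 3 most like each member; others named in the text to complete a list were chosen after their values were seen.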

Additional observations from a re-analysis of the deposited data

How the results depend on the processing

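No member was called for dose under any setting run, with or without a covariate. DESeq2 tested 48208 genes, called 0 for dose and had 776 below an unadjusted p of 0.05, and limma-voom called 0 with 361. The same 4 members were called on the Ms4a1 slope with DESeq2, limma-voom, other scalings, no filter and the B cell, T cell, luminal and linear Ms4a1 covariates. The count was 3 to 4 with 1 library left out, 3 without replicates 4 and 5 at 5 mg/kg (Dnmt3b adjusted p = 0.0765) and 0 with the replication list beside Ms4a1, both settings chosen after seeing the data. Genes called on that slope numbered 7162, but 4702 with library size alone and 1170 with the replication list added. The exact test of levels gave an unadjusted p below 0.05 for 1 member, for 0 to 2 with 1 library left out, and for 0 with library size alone, where the lowest p was 0.180. Library size alone moved the median fold change of all genes to -0.16, and Uhrf2 to -0.40, which is -0.24 relative to that median, as under TMM. Uhrf2 came before Dnmt1 in level per longest transcript, so 4 of 6 ranks held.

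Signs of small estimates turned. Dose estimates without replicates 4 and 5 at 5 mg/kg were 0.10 for Dnmt1, 0.16 for Dnmt3b, 0.29 for Uhrf1 and 0.061 for Hells, and with Ms4a1 0.089 for Dnmt1 and 0.18 for Hells, with a Uhrf2 slope of -0.0028. With linear Ms4a1, Dnmt1 was at 0.079 and Hells at 0.16. Dnmt3b with Ms4a1 was at -0.0050 by library size alone and at -0.0089 with the replication list, where the Uhrf2 slope was -0.043. With 1 library left out, dose estimates ran from -0.21 to 0.14 for Dnmt3b and -0.39 to 0.071 for Uhrf1. With Ms4a1 they ran from -0.15 to 0.020 for Dnmt1, -0.076 to 0.18 for Dnmt3b and -0.36 to 0.032 for Hells. With the replication list they ran from -0.097 to 0.12 for Dnmt3b and -0.10 to 0.20 for Uhrf1. The Uhrf2 slope ran from -0.0038 to 0.020. The product of dose and Ms4a1 ran from -0.0093 to 0.046 for Dnmt1, -0.076 to 0.00030 for Dnmt3b, -0.18 to 0.027 for Uhrf1, -0.040 to 0.0090 for Uhrf2 and -0.083 to 0.094 for Hells. The cause of these turns was not tested. No paired analysis was possible because the labels give no shared replicate numbers, and the numbers used here follow the order of the records. Dnmt3b, Uhrf1 and Hells had as few as 53, 52 and 58 reads in a library, which limits their precision.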

Other observations

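Among genes most like each member once dose and Ms4a1 were fitted, Hells was nearest to Prim2, a primase subunit (r = 0.967 over 12 libraries), Ciita (0.965) and Slamf6 (0.964). Uhrf1 was nearest to the myeloid and antigen presentation genes Ncf4 (0.978) and H2-DMb2 (0.973) and to Rnase6 (0.971), and Dnmt1 to Cnn2 (0.981), Eml4 (0.981) and Prr3 (0.980). Uhrf2 was nearest to Appl2 (0.975), Trib2 (0.958) and Mga (0.947), Dnmt3a to Tle4 (0.904), Utp14b (0.893) and Ankrd52 (0.885), and Dnmt3b to Zfp512 (0.936), Rsrp1 (0.931) and Amn1 (0.924). These are descriptions over residuals, with no test.

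Germinal centre genes, where Dnmt1 and Uhrf1 are known to be high, were also followed, and 5 of them were tested. Rgs13 rose by 0.25 and Gcsam by 0.34 per doubling of Ms4a1 (edgeR adjusted p = 0.00872 and 4.01e-05), beside 22.0% of all tested genes that rose, and Bcl6, S1pr2 and Mybl1 did not pass. Rgs13 had 0.235 ± 0.139 CPM at 5 mg/kg, against 0.564 ± 0.545 CPM at 1 mg/kg (SD, n = 6 each) and was not called for dose.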
